A study of Mus musculus with 18 samples.

Results

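The interferon response and viral RNA sensing genes are 54 mouse genes listed by symbol, from the sensors of double-stranded RNA to the antiviral proteins that interferon switches on. A row with the gene's symbol was found for 52 of them among the 29717 symbols of the count tables, and Oas1b and Mx2 were not analysed here. Messenger RNA was measured by CEL-Seq2, which counts the 3′ ends of polyadenylated transcripts with molecular tags, in 18 libraries of BALB/c marrow cells without lineage markers. Each of 3 sorted populations, HSC (haematopoietic stem cells), MPP1 and MPP4 (multipotent progenitors), was taken from controls, genotype label wt, and from mice carrying a mutated Dnmt1, the DNA methyltransferase that maintains methylation through cell division. HSC had 3 control and 3 mutant libraries, MPP1 had 2 and 2, and MPP4 had 4 and 4. The genotype label of the mutants reads dnmt1-/-, whereas the series text speaks of 1 specific Dnmt1 mutation made in mice after hypomorphic fish alleles, and of hypomethylated DNA in lineage-negative cells. The sources used here do not give the age, sex or treatment of the mice.

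Infected cells detect viral RNA in the cytoplasm with the helicases RIG-I (Ddx58) and MDA5 (Ifih1), which signal through the mitochondrial adaptor MAVS, and in endosomes with TLR3. Secreted type I interferon binds the receptor pair IFNAR1 and IFNAR2, and transcription factors that include STAT2 and IRF9 then switch on antiviral genes through the interferon-stimulated response element (ISRE) in their promoters. In cultured tumour cells, loss of DNA methylation can release endogenous retroviral transcripts that MDA5 senses, which is the background to asking whether these genes were higher in Dnmt1 mutant progenitors.

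The ISRE is the sequence that ties this group of genes together. The 250 bases before the transcription start were therefore read from RefSeq promoters (GRCm38.p6) for 40 genes. No promoter was read for the others, Iigp1 among them, which does not mean that they have none. The ISRE core, GAAANNGAAA or TTTCNNTTTC so that both strands are covered, with overlapping matches counted separately, was found for 17 of the 40 (42.5%). It was found for 3.46% of all 27025 genes in the promoter table. A match describes letters in a window and says nothing of binding. Isg15 had 3 overlapping matches, Ifit1 had 2 and Rsad2 had 1, and they are shown as classical targets with the core in capitals. Ifitm1 and Ifnar2, which differed most steadily between populations below, had none in their windows and are shown for contrast. The windows are chr4:156200819-156201068 on the minus strand for Isg15, chr19:34640639-34640888 on the plus strand for Ifit1, chr12:26456453-26456702 on the minus strand for Rsad2, chr7:140967826-140968075 on the plus strand for Ifitm1 and chr16:91372533-91372782 on the plus strand for Ifnar2. The Ifitm1 window lies inside the longer span that GENCODE M21 gives that gene (chr7:140967221-140969825), the last bases of the Ifit1 window lie inside that gene's first exon there, and the other windows end at the base before their gene.
Isg15: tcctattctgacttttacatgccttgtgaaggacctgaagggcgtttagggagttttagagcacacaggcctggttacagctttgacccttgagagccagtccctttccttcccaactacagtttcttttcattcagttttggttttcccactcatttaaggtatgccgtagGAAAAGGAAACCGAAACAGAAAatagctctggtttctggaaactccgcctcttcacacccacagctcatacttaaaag
Ifit1: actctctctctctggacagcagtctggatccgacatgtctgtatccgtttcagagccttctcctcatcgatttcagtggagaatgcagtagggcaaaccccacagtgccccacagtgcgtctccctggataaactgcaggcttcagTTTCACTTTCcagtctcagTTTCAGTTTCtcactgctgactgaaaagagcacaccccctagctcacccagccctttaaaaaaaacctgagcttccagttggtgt
Rsad2: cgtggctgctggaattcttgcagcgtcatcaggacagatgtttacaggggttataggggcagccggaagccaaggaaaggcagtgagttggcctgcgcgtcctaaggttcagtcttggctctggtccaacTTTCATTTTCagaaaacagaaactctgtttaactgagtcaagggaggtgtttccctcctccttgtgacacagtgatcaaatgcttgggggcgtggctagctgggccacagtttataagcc
Ifitm1: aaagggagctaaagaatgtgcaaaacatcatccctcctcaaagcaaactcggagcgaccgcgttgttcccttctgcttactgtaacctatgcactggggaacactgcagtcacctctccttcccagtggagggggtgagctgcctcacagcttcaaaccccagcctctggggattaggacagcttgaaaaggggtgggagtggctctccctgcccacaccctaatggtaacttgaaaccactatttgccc
Ifnar2: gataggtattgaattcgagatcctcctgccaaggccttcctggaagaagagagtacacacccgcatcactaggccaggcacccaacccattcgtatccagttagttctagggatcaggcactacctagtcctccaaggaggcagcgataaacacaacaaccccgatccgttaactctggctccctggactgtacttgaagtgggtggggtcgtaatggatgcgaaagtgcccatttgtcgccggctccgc
The first base of the core lay 78 to 66 bases before the start in Isg15, 104 and 85 bases before it in Ifit1 and 120 bases before it in Rsad2. The windows read for genes of the group held a median of 5 CpG dinucleotides, the sites that Dnmt1 keeps methylated. The median was 6 over all promoters in the table.

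Library totals ran from 354642 to 1943562 counts. An ID number in the column names recurs in up to 3 populations. No label calls such a number an animal, and p-values therefore cover the spread among libraries only, part of which may be technical. Dnmt1 itself was counted in every library, at 100.2 to 336 CPM (a count scaled to the library total) in HSC, 213 to 333 CPM in MPP1 and 185 to 377 CPM in MPP4. Controls and mutants overlapped in HSC and MPP4, and both MPP1 mutants were below both MPP1 controls, as for 19.3% of all genes tested there. The sources used here do not say whether the mutation changes the level of this transcript, so the value does not check the labels. The population labels were checked on their markers: Flt3, a receptor that marks MPP4, was at 255 to 612 CPM in MPP4 and at most 53.4 CPM elsewhere, and Slamf1, a stem cell marker, was at 26.7 to 114 CPM in HSC and at most 8.02 CPM in MPP4. These markers set MPP4 apart but did not separate MPP1 from HSC, where Slamf1, Flt3 and Procr overlapped and Cd34 was at 124 to 285 CPM in HSC and 220.0 to 337 CPM in MPP1. In 6 libraries, erythroid, neutrophil and immunoglobulin transcripts together exceeded 5000 CPM, against at most 1545 CPM in the other 12. They were HSC control 1 (40116 CPM, nearly all immunoglobulin), HSC mutant 1 (15028 CPM), MPP1 control 2 (40623 CPM), MPP4 control 4 (35744 CPM), MPP4 mutant 2 (221915 CPM) and MPP4 mutant 3 (12521 CPM). The counts of called genes are given with and without them, and so are the changes of some single genes. Without them MPP1 control 1 is the only MPP1 control, so changes in MPP1 are then poorly determined.

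The 52 genes were detected at a similar summed level in all 3 populations, and their sum did not separate mutants from controls. Levels are CPM scaled by TMM, which corrects for differences in composition between libraries. The summed level was 4353 ± 628 CPM in HSC controls and 4090 ± 326 CPM in HSC mutants (SD, n = 3 each). In MPP1 it was 4112 ± 724 CPM in controls and 4002 ± 340 CPM in mutants (SD, n = 2 each), and in MPP4 4017 ± 718 CPM in controls and 4007 ± 737 CPM in mutants (SD, n = 4 each). The lowest library was MPP4 control 4 with 3082 CPM and the highest HSC control 1 with 4994 CPM, so controls held both ends of the range. In bulk samples, fewer cells of a type and less RNA per cell cannot be told apart. Because CEL-Seq2 counts transcript ends, a gene's count is not divided by its length. On this scale Ly6e, a small membrane-anchored protein, took 11.1% of the sum, Ifitm1 10.8% and Ifitm3 9.06%, both interferon-induced membrane proteins that block the entry of viruses.

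**Figure D1:**
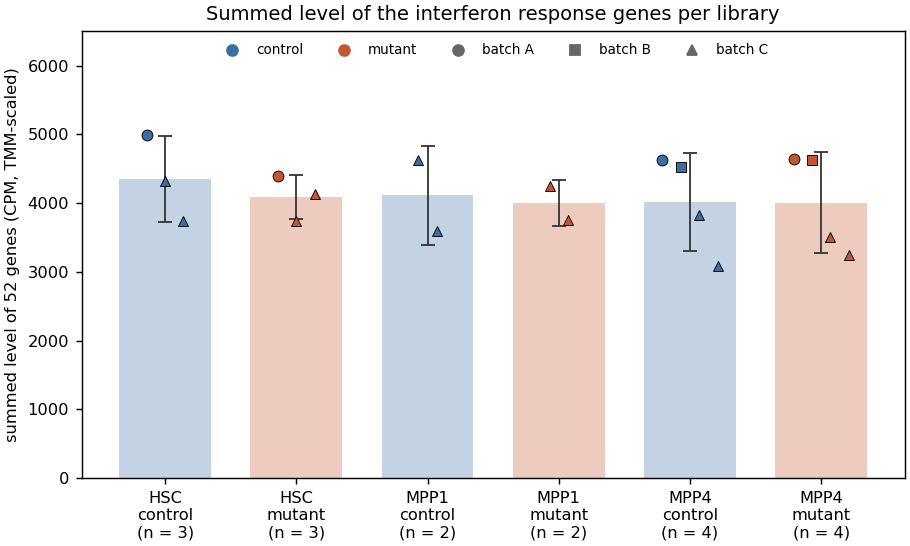
Summed level of the 52 genes in each library (y axis, TMM-scaled CPM) by population and genotype; bars are means, error bars SD, points libraries and point shapes sequencing batches. Points of controls and mutants overlap in each population, between 3082 CPM in MPP4 control 4 and 4994 CPM in HSC control 1.

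No gene of the group passed the test in mutants of any population. Genes were tested with edgeR's quasi-likelihood test, with p adjusted over all genes by the Benjamini-Hochberg method and called below 0.05. In HSC 43 of the 52 genes were counted highly enough to be tested, and 0 were called, where 0.241% of all 9147 genes were. At an unadjusted p below 0.05, 2 of the 43 were higher (5.84% of all genes) and 5 lower (4.18%) in mutants. In MPP1 0 of 42 were called (0.225% of all genes) and 0 were higher (2.69%) or lower (2.17%) at an unadjusted p below 0.05. In MPP4 0 of 49 were called (0.0852% of all genes), and 0 were higher (3.91%) and 4 lower (3.2%) at an unadjusted p below 0.05. DESeq2 on the same libraries also called 0 in each population. Without the 6 libraries rich in erythroid, neutrophil or immunoglobulin transcripts 0 were called as well, with 27 of 43 genes lower in HSC mutants, 17 of 42 in MPP1 mutants and 36 of 50 in MPP4 mutants. The MPP4 fit without them rests on MPP4 control 1 against MPP4 mutant 1 and MPP4 control 3 against MPP4 mutant 4, each within a sequencing batch. In the authors' deposited tables, 0 of the 52 had an adjusted p below 0.05 in HSC, MPP1 or MPP4, against 8, 7 and 13 of all genes. Of the 52, 34, 33 and 32 were lower in mutants there, beside 9874 of 21061, 11301 of 20375 and 14356 of 23876 of all genes.

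Because a missed threshold does not show equality, the intervals are given as well. The upper end of the 95% interval of the mutant change lay below a log2 change of 1, a doubling, for 38 of 43 tested genes in HSC, 26 of 42 in MPP1 and 39 of 49 in MPP4. Summing the libraries of each ID number, 4 per genotype, gave 0 called of 50 genes (0.227% of all 11020 genes), with an upper end below 1 for 43 of 50. There 0 were higher (3.93% of all genes) and 5 lower (3.05%) at an unadjusted p below 0.05.

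**Figure D2:**
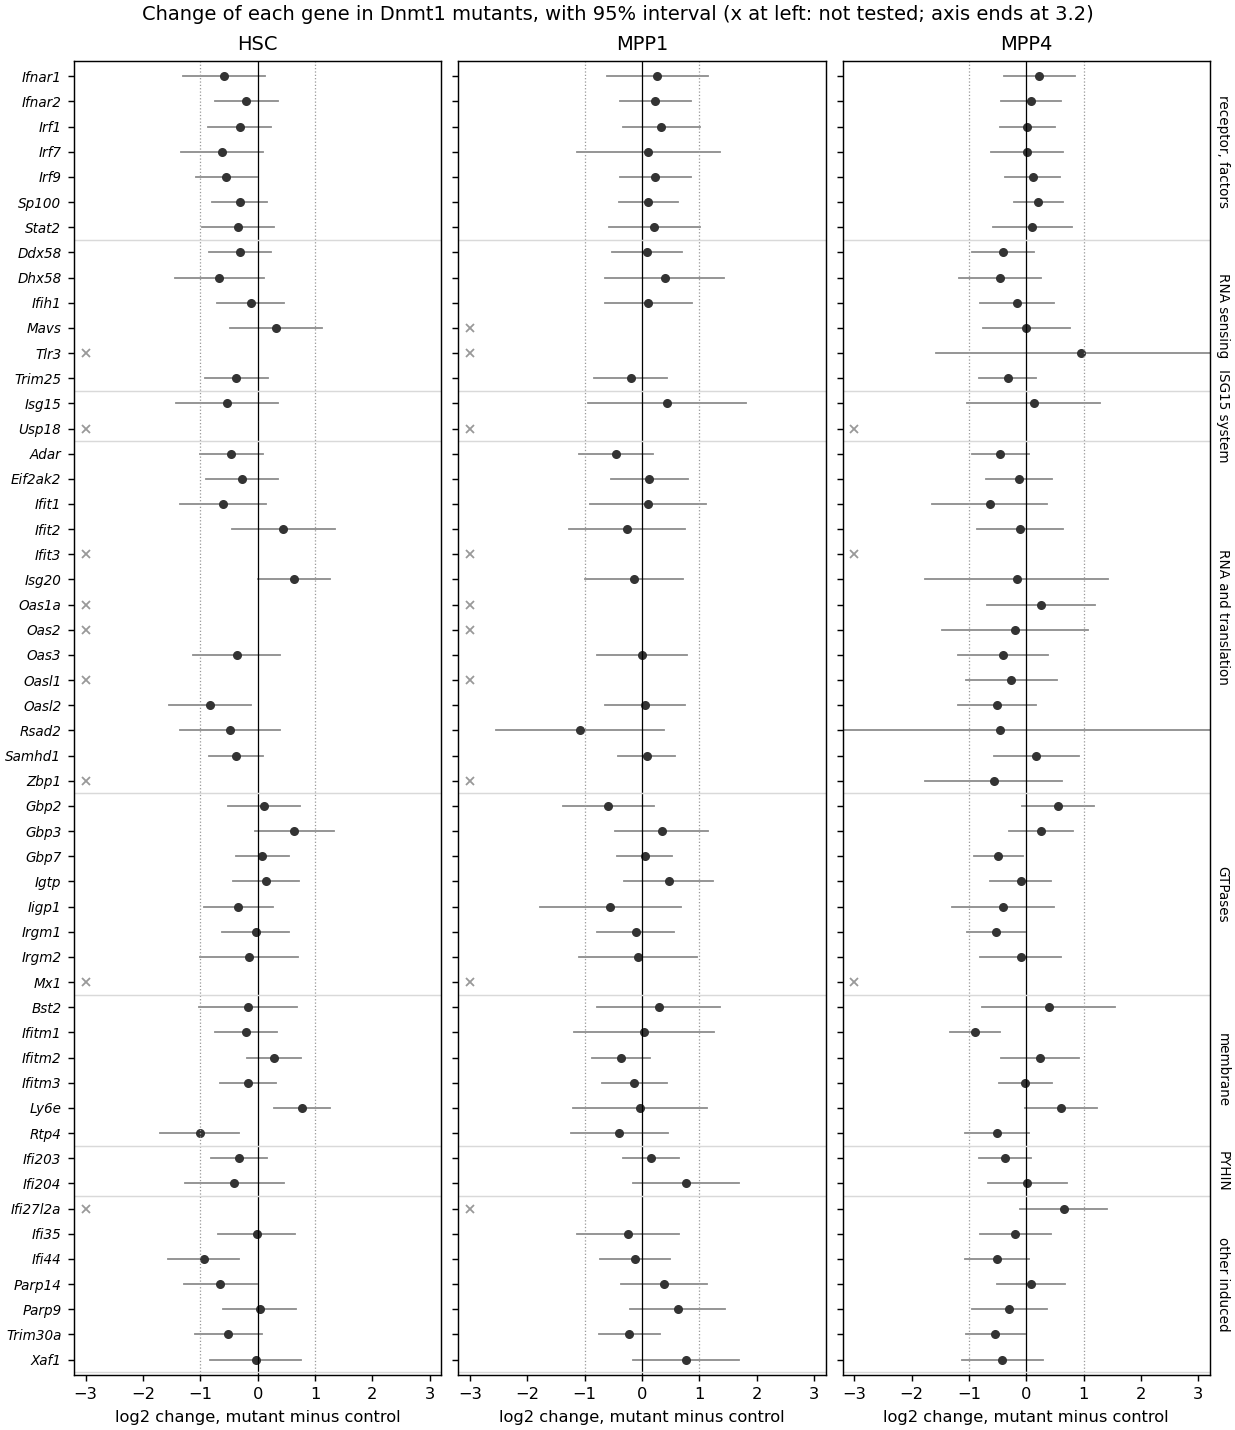
Log2 change of each gene, mutant minus control (x axis), with its 95% interval as a line, by population and by role; crosses at the left mark genes not tested, dotted lines a doubling and its inverse. Every interval crosses 0 or belongs to a gene whose adjusted p missed 0.05; the intervals of Rsad2 and Tlr3 in MPP4 run past the axis.

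The sensors of RNA were present in all libraries apart from Tlr3, and 0 of them passed the test between genotypes. Ifih1 was at 46.1, 62.6 and 44.6 CPM in HSC controls and 39.8, 58.6 and 47.4 CPM in HSC mutants, at 40.1 and 59.9 CPM in MPP1 controls and 41.1 and 59.4 CPM in MPP1 mutants and at 25.9, 26.7, 29.4 and 33.6 CPM in MPP4 controls and 24.6, 17.03, 35.03 and 27.9 CPM in MPP4 mutants. The mutant change was -0.12 ± 0.29 (log2, SE) in HSC, 0.11 ± 0.37 in MPP1 and -0.16 ± 0.31 in MPP4, with adjusted p of 0.916, 0.999 and 0.955. The Ifih1 levels of mutants and controls overlapped in each population, and in MPP4 the mutants held both the lowest and the highest value. Ddx58 was at 80.7, 71.6 and 83.9 CPM in HSC controls and 54.3, 73.2 and 65.3 CPM in HSC mutants, at 80.2 and 67.1 CPM in MPP1 controls and 71.9 and 81.9 CPM in MPP1 mutants and at 89.2, 63.2, 81.9 and 74.7 CPM in MPP4 controls and 40.1, 70.3, 65.1 and 60.96 CPM in MPP4 mutants. Its mutant change was -0.31 ± 0.26 in HSC, 0.09 ± 0.30 in MPP1 and -0.41 ± 0.26 in MPP4 (adjusted p 0.728, 0.999 and 0.841). The lowest RIG-I value of all, 40.1 CPM, was in MPP4 mutant 1. Mavs was at 21.4, 15.4 and 15.7 CPM in HSC controls and 23.5, 21.5 and 21.2 CPM in HSC mutants, at 16.3 and 27.2 CPM in MPP1 controls and 7.71 and 16.4 CPM in MPP1 mutants and at 18.4, 33.7, 17.5 and 18.7 CPM in MPP4 controls and 25.9, 27.7, 17.5 and 14.4 CPM in MPP4 mutants, with a change of 0.32 ± 0.39 in HSC and -0.00 ± 0.36 in MPP4 (adjusted p 0.822 and 1.0), and was not tested in MPP1. The HSC mutants, from 21.2 to 23.5 CPM, exceeded HSC controls 2 and 3 and lay around HSC control 1. Dhx58, which encodes the RIG-I-like regulator LGP2, changed by -0.66 ± 0.38 in HSC (adjusted p 0.558), with all 3 mutants below all 3 controls (as for 4.33% of all genes). Of the 6 sensing genes, 4 of 5 tested were lower in HSC mutants, 1 of 4 in MPP1 mutants and 5 of 6 in MPP4 mutants.

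The receptor and transcription factor genes had opposite signs by population, with 0 called. Irf7, which drives the alpha interferon genes, was at 67.5, 19.9 and 34.1 CPM in HSC controls and 32.6, 24.1 and 16.3 CPM in HSC mutants, at 11.1 and 41.7 CPM in MPP1 controls and 30.8 and 18.4 CPM in MPP1 mutants and at 96.8, 40.7, 42.9 and 44.8 CPM in MPP4 controls and 60.8, 80.9, 45.04 and 33.9 CPM in MPP4 mutants. Its change was -0.61 ± 0.35 in HSC, 0.11 ± 0.59 in MPP1 and 0.01 ± 0.30 in MPP4 (adjusted p 0.566, 0.999 and 1.0). Without the 6 libraries named above the Irf7 change was -0.28 ± 0.48 in HSC, 1.16 in MPP1 and -0.51 ± 0.34 in MPP4. In MPP1 that leaves MPP1 control 1, with 15 Irf7 counts, as the only control, so the size of this change is poorly determined. The 2 highest Irf7 values in controls, 67.5 and 96.8 CPM, came from the same ID number, that of HSC control 1 and MPP4 control 1. Stat2 was at 41.2, 40.8 and 44.6 CPM in HSC controls and 28.1, 37.03 and 35.9 CPM in HSC mutants, at 40.9 and 43.6 CPM in MPP1 controls and 61.7 and 34.8 CPM in MPP1 mutants and at 58.8, 35.1, 30.99 and 56.04 CPM in MPP4 controls and 27.1, 42.6, 62.6 and 64.3 CPM in MPP4 mutants, with changes of -0.34 ± 0.31, 0.21 ± 0.38 and 0.11 ± 0.33 (adjusted p 0.742, 0.999 and 0.972). All 3 HSC mutants were below all 3 HSC controls for Stat2 (as for 4.33% of all genes), and the MPP4 groups overlapped. Of the 7 genes of this role, Ifnar1, Ifnar2, Stat2, Irf1, Irf7, Irf9 and Sp100, 7 were lower in HSC mutants, 0 in MPP1 mutants and 0 in MPP4 mutants, and none of these differences passed the test.

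Isg15, a ubiquitin-like modifier and a usual read-out of the response, was at 37.9, 9.97 and 36.7 CPM in HSC controls and 21.7, 12.9 and 19.6 CPM in HSC mutants, at 8.17 and 23.6 CPM in MPP1 controls and 23.1 and 14.3 CPM in MPP1 mutants and at 36.1, 8.89, 25.4 and 26.2 CPM in MPP4 controls and 24.6, 27.7, 42.5 and 8.47 CPM in MPP4 mutants. Its change was -0.53 ± 0.44 in HSC, 0.44 ± 0.67 in MPP1 and 0.13 ± 0.53 in MPP4 (adjusted p 0.714, 0.999 and 0.983). Without the 6 libraries named above it was -0.33 ± 0.59 in HSC, 1.21 in MPP1 and -1.01 ± 0.46 in MPP4. In MPP1 that leaves MPP1 control 1, with 11 Isg15 counts, as the only control, so the size of this change is poorly determined. The highest Isg15 library was MPP4 mutant 3 and the lowest MPP1 control 1, and the genotypes overlapped in each population. Usp18, which removes ISG15 and restrains the receptor, was counted too low for a test within a population; over ID numbers its change was -0.93 ± 0.36 (adjusted p 0.632). MPP4 control 1 held 54 of the 176 Usp18 counts of all libraries.

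Among the effectors that act on RNA, translation and nucleotides, 7 of 9 tested genes were lower in HSC mutants, 4 of 9 in MPP1 mutants and 11 of 13 in MPP4 mutants, with 0 called. Eif2ak2, the kinase PKR that halts translation on double-stranded RNA, was at 95.5, 49.9 and 76.04 CPM in HSC controls and 40.7, 70.6 and 73.5 CPM in HSC mutants, at 54.2 and 88.9 CPM in MPP1 controls and 61.7 and 83.9 CPM in MPP1 mutants and at 109, 61.3, 69.1 and 70.98 CPM in MPP4 controls and 55.6, 66.00, 103 and 62.7 CPM in MPP4 mutants. Its change was -0.28 ± 0.31, 0.13 ± 0.32 and -0.12 ± 0.27 (adjusted p 0.794, 0.999 and 0.958), with overlapping groups throughout. Adar edits adenosines in double-stranded RNA and keeps a cell's own transcripts from being sensed. Adar was at 82.4, 77.1 and 60.3 CPM in HSC controls and 56.1, 54.3 and 53.9 CPM in HSC mutants, at 73.6 and 81.7 CPM in MPP1 controls and 61.7 and 49.1 CPM in MPP1 mutants and at 113, 93.6, 73.1 and 63.5 CPM in MPP4 controls and 65.9, 66.00, 42.5 and 69.4 CPM in MPP4 mutants. All mutants were below all controls in HSC, as for 4.33% of all genes, and in MPP1, as for 19.3%, while MPP4 overlapped. Its change was -0.46 ± 0.27, -0.45 ± 0.31 and -0.45 ± 0.24 (adjusted p 0.576, 0.999 and 0.767), and over ID numbers -0.49 ± 0.18 (adjusted p 0.586). The Adar interval over ID numbers ran from -0.86 to -0.11 before any adjustment.

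Ifit1, which binds RNA that lacks the host's cap methylation, was at 77.4, 33.6 and 23.6 CPM in HSC controls and 26.3, 21.5 and 42.5 CPM in HSC mutants, at 25.3 and 16.3 CPM in MPP1 controls and 23.1 and 22.5 CPM in MPP1 mutants and at 56.9, 14.97, 21.5 and 48.6 CPM in MPP4 controls and 20.7, 23.4, 30.03 and 11.01 CPM in MPP4 mutants. Its change was -0.60 ± 0.36 in HSC, 0.10 ± 0.49 in MPP1 and -0.64 ± 0.46 in MPP4 (adjusted p 0.60, 0.999 and 0.873). Without the 6 libraries named above it was 0.02 ± 0.44 in HSC, -0.10 in MPP1 and -1.23 ± 0.43 in MPP4. The highest Ifit1 values were in HSC control 1 and MPP4 control 1, which share an ID number. Oas2 makes the 2-5A signal that activates RNase L; it was at 24.7, 3.63 and 7.87 CPM in HSC controls and 6.34, 5.17 and 1.63 CPM in HSC mutants, at 8.17 and 16.3 CPM in MPP1 controls and 7.71 and 4.09 CPM in MPP1 mutants and at 32.3, 7.95, 17.5 and 11.2 CPM in MPP4 controls and 5.17, 27.7, 15.01 and 13.5 CPM in MPP4 mutants. It was tested in MPP4 alone among the populations, with a change of -0.19 ± 0.59 (adjusted p 0.972), and it was highest in MPP4 control 1, with HSC control 1 the highest of the HSC libraries. Without the 6 libraries the Oas2 change in MPP4 was -1.32 ± 0.58. Ifit3 had 26 counts in all 18 libraries and was not tested, and Mx1, whose protein is defective in BALB/c mice, had 68.

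The ID number of HSC control 1 and MPP4 control 1 stood out for this group of genes. It held the highest value of its population for 17 of 43 tested genes in HSC, against 15.2% of all genes, and for 20 of 49 in MPP4, against 8.29% of all genes. HSC control 1 carried 38997 CPM of immunoglobulin transcripts, and MPP4 control 1, from the same number, 393 CPM. Both libraries belong to sequencing batch A, which holds 1 control and 1 mutant in HSC and in MPP4. Within batch A 30 of 43 genes were lower in the HSC mutant with a median of -0.51 (log2), and 35 of 49 in the MPP4 mutant with a median of -0.45. Within batch C, with 2 libraries of each genotype, 25 of 43 were lower in HSC with a median of -0.12, 16 of 42 in MPP1 with a median of 0.06, and 26 of 49 in MPP4 with a median of -0.01. Batch B, 1 library of each genotype in MPP4, had 25 of 49 lower with a median of -0.01. Its mutant, MPP4 mutant 2, carried 221915 CPM of erythroid, neutrophil and immunoglobulin transcripts. MPP4 control 4, MPP4 mutant 3 and MPP1 control 2, all in batch C, were also rich in such transcripts. So were both HSC libraries of batch A. Without these 6 libraries 36 of 50 genes were lower in MPP4 mutants. That fit compares MPP4 control 1 with MPP4 mutant 1 in batch A, and MPP4 control 3 with MPP4 mutant 4 in batch C. MPP4 control 2 is then alone in batch B. The batch A pair holds the ID number that stood out, and the share of all genes lower in this setting is not given here. The part of the 6 libraries in the differences between batches was not tested. Over all libraries 33 of 43 genes were lower in HSC mutants with a median of -0.32, where 48.7% of all genes were lower with a median of 0.01. The corresponding figures were 16 of 42 in MPP1 with a median of 0.08 and 30 of 49 in MPP4 with a median of -0.12, where 50.4% and 50.5% of all genes were lower. Leaving out single MPP1 libraries gave 17 to 26 lower genes there. Markers of other cells were also compared between HSC mutants and controls. Of 14 stem and progenitor markers 12 were lower in HSC mutants (median -0.48, 0 called), with a sum of 2356 to 3401 CPM in controls and 1468 to 2862 CPM in mutants. Of 12 erythroid markers all 8 tested were higher (median 1.12, 0 called), with a sum of 804 to 1096 CPM in controls and 968 to 13699 CPM in mutants. The highest sum was that of HSC mutant 1 alone. HSC mutants 2 and 3, at 1025 and 968 CPM, lay within the control range. The part of either marker set in the 33 lower genes was not tested. Leaving out the ID number of HSC control 1 changed the count over ID numbers from 35 of 50 lower (median -0.10) to 26 of 50 (median -0.04), where 49.4% of all genes were lower with all ID numbers. That control ID number was picked for its high levels of these same genes, so leaving it out tends to reduce this count by itself. The part that this ID number's immunoglobulin transcripts play in its levels was not tested.

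**Figure D3:**
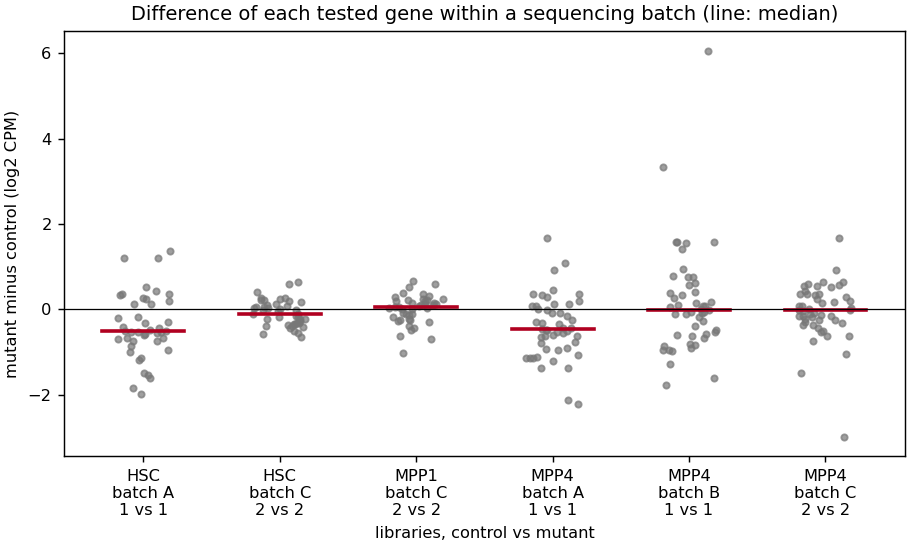
Difference of each tested gene between mutant and control within 1 sequencing batch (y axis, log2 CPM; each point is a gene, the line the median). The medians are -0.51 in HSC and -0.45 in MPP4 in batch A, and between -0.12 and 0.06 in batches B and C. In MPP4, the batch B mutant and 1 library of each genotype in batch C are rich in erythroid, neutrophil or immunoglobulin transcripts.

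The smallest p-values within a population belonged to membrane proteins and to genes of varied function. In HSC, Ly6e was at 405, 251 and 186 CPM in HSC controls and 941, 365 and 292 CPM in HSC mutants, with a change of 0.77 ± 0.24 (adjusted p 0.272), and the groups overlapped. Its change in MPP4 was 0.61 ± 0.30 (adjusted p 0.727) and in MPP1 -0.04 ± 0.48 (adjusted p 0.999). Ifi44, an interferon-induced cytoplasmic protein, was at 132, 90.7 and 115 CPM in HSC controls and 31.7, 68.9 and 88.2 CPM in HSC mutants, with all 3 mutants below all 3 controls and a change of -0.94 ± 0.30 (adjusted p 0.289). Within batches the Ifi44 difference was -1.98 in A and -0.38 in C. Rtp4, of the receptor transporter family, was at 90.6, 38.1 and 28.8 CPM in HSC controls and 28.1, 18.9 and 31.03 CPM in HSC mutants, with a change of -1.01 ± 0.34 (adjusted p 0.309) and 1 overlap, HSC mutant 3 over HSC control 3. Within batches the Rtp4 difference was -1.61 in A and -0.41 in C. Without the 6 libraries named above, of which HSC control 1 and HSC mutant 1 are the pair in HSC, the HSC changes were 0.56 ± 0.26 for Ly6e, -0.40 ± 0.31 for Ifi44 and -0.53 ± 0.43 for Rtp4 (adjusted p 1.0 each). Besides Ifi44, the genes with all HSC mutants below all HSC controls were Adar, Dhx58, Parp14 and Stat2, which makes 5 of 43 (4.33% of all genes) and 0 of 43 the other way (5.06%). Genes named here beyond the 3 with the smallest p and the fixed read-outs were chosen after their values were seen.

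In MPP1 the smallest p-values were those of Xaf1, a partner of the apoptosis inhibitor XIAP, of Ifi204, a DNA-binding protein of the PYHIN family, and of Parp9, an ADP-ribosyltransferase. Xaf1 was at 18.6 and 19.96 CPM in MPP1 controls and 30.8 and 32.8 CPM in MPP1 mutants, with a change of 0.77 ± 0.45. Ifi204 was at 21.5 and 19.96 CPM in MPP1 controls and 23.1 and 45.05 CPM in MPP1 mutants, with a change of 0.77 ± 0.45, and Parp9 was at 26.7 and 34.5 CPM in MPP1 controls and 51.4 and 38.9 CPM in MPP1 mutants, with a change of 0.62 ± 0.40. The mutants were above the controls in all 3, and each adjusted p was 0.999. The Ifi204 change was 0.20 without MPP1 mutant 2. With 2 against 2 libraries this separation is common: all mutants were above all controls in 5 of 42 genes of the group and 14.6% of all genes, and below them in 8 of 42 and 19.3%.

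In MPP4 Ifitm1 had the smallest p of the group, and its level was at 335, 217, 214 and 161 CPM in MPP4 controls and 228, 115, 85.1 and 91.4 CPM in MPP4 mutants. The change was -0.90 ± 0.20, a 1.86-fold lower level in mutants, with an unadjusted p of 0.000359 and an adjusted p of 0.153, which ran from 0.0503 to 1.0 over the alternatives. The mutant was below the control in batch A (-0.55), in batch B (-0.90) and in batch C (-1.05), although MPP4 mutant 1 exceeded 3 of the 4 controls. In HSC the change of Ifitm1 was -0.21 ± 0.27 (adjusted p 0.830). The difference between the effects in MPP4 and HSC was tested over all genes in 1 model, and 0 of 50 genes of the group were called (0.0283% of all genes). Gbp7, a guanylate-binding GTPase, was at 152, 197, 171 and 119.5 CPM in MPP4 controls and 107, 110.7, 120.1 and 119 CPM in MPP4 mutants, with a change of -0.48 ± 0.20 (adjusted p 0.632). Trim30a, a ubiquitin ligase that restrains inflammatory signalling, was at 137, 130.05, 123 and 149 CPM in MPP4 controls and 60.8, 132, 108 and 82.1 CPM in MPP4 mutants, with a change of -0.54 ± 0.25 (adjusted p 0.685). All 4 mutants were below all 4 controls for 1 of 49 genes, Irgm1 (1.65% of all genes), and above them for 0 of 49 (1.32%).

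The other membrane read-outs overlapped between genotypes. Bst2, the tetherin that holds budding virions at the cell surface, was at 49.4, 31.7 and 31.5 CPM in HSC controls and 64.3, 8.61 and 40.8 CPM in HSC mutants, at 23.03 and 16.3 CPM in MPP1 controls and 35.97 and 14.3 CPM in MPP1 mutants and at 49.4, 7.02, 30.99 and 7.47 CPM in MPP4 controls and 38.8, 25.5, 47.5 and 13.5 CPM in MPP4 mutants. Its change was -0.17 ± 0.41, 0.29 ± 0.52 and 0.39 ± 0.52 (adjusted p 0.919, 0.999 and 0.939). Without the 6 libraries named above it was -0.53 ± 0.54 in HSC, 0.13 in MPP1 and -0.72 ± 0.41 in MPP4. Bst2 ran from 7.02 to 49.4 CPM in MPP4 controls, a range that held all 4 MPP4 mutants. Ifitm3 was at 527, 497 and 367 CPM in HSC controls and 376, 399.6 and 480.1 CPM in HSC mutants, at 528 and 285 CPM in MPP1 controls and 403 and 324 CPM in MPP1 mutants and at 505, 277, 265 and 164 CPM in MPP4 controls and 635, 266, 218 and 161 CPM in MPP4 mutants, with changes of -0.18 ± 0.24, -0.13 ± 0.27 and -0.02 ± 0.22 (adjusted p 0.840, 0.999 and 0.994). Both the lowest and the highest Ifitm3 values of MPP4 were in mutants. Over ID numbers the smallest p-values were those of Rtp4 (-0.69 ± 0.22, adjusted p 0.483), Ifi44 (-0.67 ± 0.22, adjusted p 0.557) and Adar.

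Rsad2, which encodes viperin, had the widest spread of the group, and it was high where neutrophil transcripts were high. It was at 12.02, 7.02, 15.9 and 138 CPM in MPP4 controls and 3.88, 617, 5.0 and 3.39 CPM in MPP4 mutants. MPP4 mutant 2 carried 31992 CPM of 10 neutrophil marker genes and MPP4 control 4 carried 3527 CPM, and the other 6 MPP4 libraries at most 87.8 CPM. The third library of this kind was MPP1 control 2, with 76.2 CPM of Rsad2 and 8113 CPM of neutrophil transcripts. HSC mutant 1 had 1291 CPM of neutrophil transcripts and 21.7 CPM of Rsad2, within the 10.5 to 36.3 CPM of the other HSC libraries. The Rsad2 change in MPP4 was -0.46 ± 2.86 and carries no direction. Outside the 6 libraries, MPP4 mutants 1 and 4 were at 3.88 and 3.39 CPM, on 3 and 4 counts. MPP4 controls 1 to 3 were at 7.02 to 15.9 CPM. Without the 6 libraries the MPP4 change was -1.93 ± 0.82 (adjusted p 0.587). The change without them was -0.84 ± 0.51 in HSC and -0.09 ± 0.61 in MPP1 (adjusted p 1.0 and 0.998). Leaving out MPP1 control 1 leaves MPP1 control 2 as the only MPP1 control. Rsad2 then passed the threshold in MPP1, but a larger share of all genes was also called than with all libraries. Nothing is read from that call. The share of Rsad2 that came from neutrophil RNA was not tested.

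**Figure D4:**
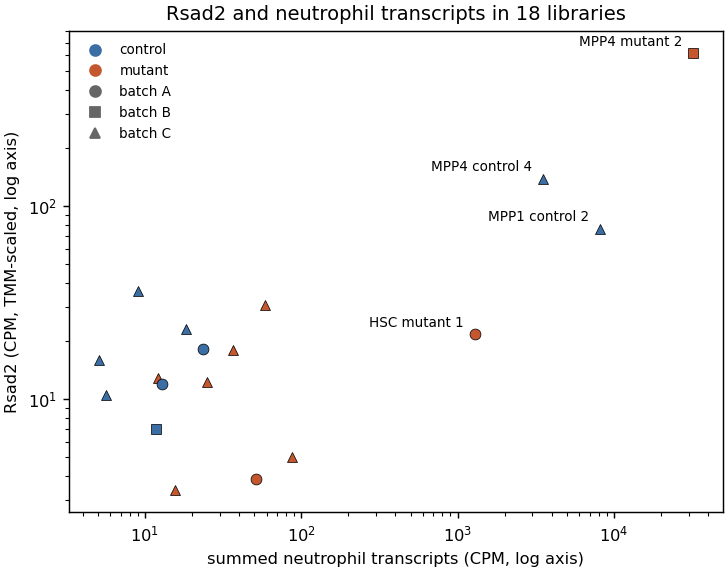
Rsad2 level (y axis, TMM-scaled CPM, log scale) against the summed level of 10 neutrophil genes (x axis, CPM, log scale), 1 point per library. The 3 libraries with the most neutrophil transcripts, 3527 to 31992 CPM, hold the 3 highest Rsad2 levels, 76.2 to 617 CPM.

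No gene of the wider pathway passed the test between genotypes. The 11 interferon genes with a row had 8 counts together, spread over 5 control libraries, and Ifnb1 had 0 counts. Of the other receptor and signalling genes 0 of 15, 14 and 15 tested were called in HSC, MPP1 and MPP4 mutants, of the other nucleic acid sensors 0 of 18, 17 and 19, and of other interferon-induced genes 0 of 57, 54 and 54. In HSC mutants 63 of all 90 tested were lower and 27 higher (median -0.16), in MPP1 mutants 36 of 85 lower and 49 higher (median 0.09), and in MPP4 mutants 47 of 88 lower and 41 higher (median -0.02). Of all 104 tested over ID numbers 0 were called, with 51 higher and 53 lower. The smallest adjusted p there was 0.0938, for Phf11d (1.85 ± 0.38).

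Between populations, Ifitm1 and Ifnar2 carried the steadiest differences of the group. These comparisons were made within ID number, so that MPP4 control 2 and MPP4 mutant 2, whose numbers occur in 1 population, do not bear on them. In controls 6 of 50 genes were called between MPP4 and HSC (9.82% of all 10613 genes), 2 higher (5.82%) and 4 lower (4%) in MPP4. In mutants 10 of 50 were called (12.7% of all genes), 6 higher (7.04%) and 4 lower (5.66%). Both genotypes are compared with the shares of all genes as a description, and nothing particular to the group is read from them. MPP1 and HSC controls differed in 0 of 50 genes (0.236% of all genes; 0 of 50 by DESeq2). At an unadjusted p below 0.05, 1 of 50 was higher (3.62%) and 1 lower (1.72%) in MPP1. MPP4 and MPP1 controls differed in 3 of 50 (3.58% of all genes).

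Ifitm1 fell from HSC to MPP4 in both genotypes. In HSC it was at 904, 859.6 and 409 CPM in HSC controls and 593, 581 and 719 CPM in HSC mutants, against 161 to 335 CPM in MPP4 controls and 85.1 to 228 CPM in MPP4 mutants. No MPP4 library reached the lowest HSC library, 409 CPM. The difference, MPP4 minus HSC, was -1.61 ± 0.28 in controls (adjusted p 0.000831) and -2.35 ± 0.29 in mutants (adjusted p 1.74e-05). It passed the test in both genotypes under each alternative tried. Against MPP1 controls the difference was -1.48 ± 0.32 (adjusted p 0.0130), and it missed the threshold once the ID number of HSC control 2 was left out (-0.86, adjusted p 0.495).

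Ifnar2, the signalling chain of the type I interferon receptor, rose from HSC to MPP4. It was at 79.1, 56.2 and 60.3 CPM in HSC controls and 58.8, 55.98 and 57.2 CPM in HSC mutants, and at 142, 142, 168 and 85.9 CPM in MPP4 controls and 182, 72.4, 178 and 174 CPM in MPP4 mutants. All HSC libraries but HSC control 1 were below all MPP4 libraries, and MPP4 control 4 and MPP4 mutant 2, the MPP4 libraries with the most erythroid and neutrophil transcripts, were the lowest of MPP4; the part of those transcripts in the Ifnar2 level was not tested. The difference was 1.07 ± 0.22 in controls (adjusted p 0.000833) and 1.61 ± 0.21 in mutants (adjusted p 6.06e-07). In controls the call was lost when HSC control 2 and its ID number were left out (0.71, adjusted p 0.206). MPP4 exceeded MPP1 in controls by 0.95 ± 0.26 (adjusted p 0.0271), and Ifnar1, the other chain, was not called in either genotype.

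Ifi27l2a and Tlr3 were at the edge of detection in HSC and higher in MPP4. Neither passed the count filter of the genotype tests in HSC or MPP1, and MPP4 held most of their counts. They entered the model of 18 libraries through the population where they were high. Their calls are therefore no independent support for the direction. Ifi27l2a was at 11.5, 2.72 and 2.62 CPM in HSC controls and 12.7, 8.61 and 1.63 CPM in HSC mutants, and at 53.8, 17.8, 21.5 and 3.74 CPM in MPP4 controls and 47.8, 31.9, 45.04 and 28.8 CPM in MPP4 mutants. Its difference was 2.33 ± 0.55 in controls (adjusted p 0.00343) and 2.23 ± 0.45 in mutants (adjusted p 0.000506), and MPP4 control 4 stayed within the HSC range. In controls the call was lost on leaving out HSC control 1 with the other library of its ID number (2.53, adjusted p 0.0802), or likewise HSC control 2 (2.0, adjusted p 0.0927). Tlr3 was at 1.65, 6.35 and 0 CPM in HSC controls and 2.72, 3.44 and 0 CPM in HSC mutants, and at 13.3, 2.81, 15.9 and 26.2 CPM in MPP4 controls and 1.29, 48.97, 25.02 and 37.3 CPM in MPP4 mutants. The difference was 2.85 ± 0.78 in mutants (adjusted p 0.0109) and 2.27 ± 0.75 in controls (adjusted p 0.0509). MPP4 mutant 1 had 1.29 CPM of Tlr3, below HSC mutant 1 of the same number, and the call in mutants was lost without the ID number of HSC mutant 2 (2.17, adjusted p 0.415) or HSC mutant 3 (2.29, adjusted p 0.0976). In MPP4 against MPP1 controls Tlr3 rose by 4.12 ± 1.05 (adjusted p 0.0178). The 2 MPP1 controls held 2 and 0 Tlr3 counts, so the size of this change is poorly determined. That call ended on leaving out the ID numbers of HSC control 2 (7.32) or HSC control 3 (3.45), each of which leaves 1 MPP1 control.

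**Figure D5:**
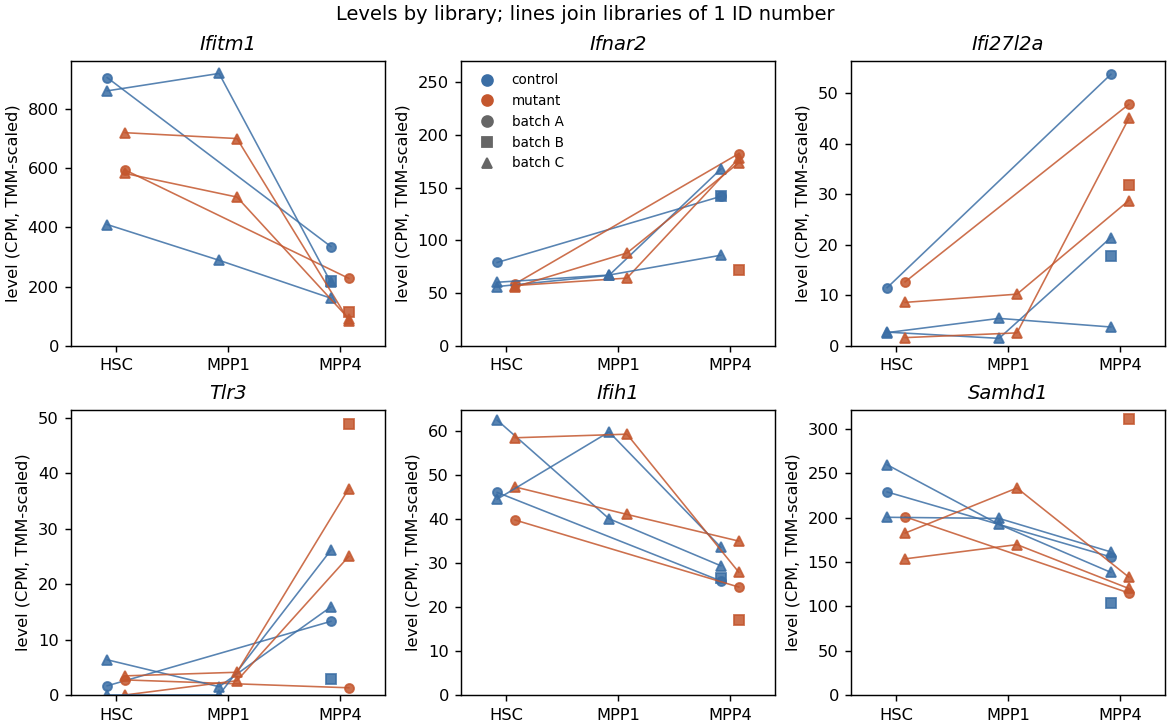
Levels of 6 genes (y axis, TMM-scaled CPM) in HSC, MPP1 and MPP4, 1 point per library; lines join libraries of 1 ID number. Ifitm1 is lower in each MPP4 library than in any HSC library, and for Ifnar2 MPP4 mutant 2 (72.4 CPM) lies inside the HSC range and MPP4 control 4 (85.9 CPM) just above its highest library (79.1 CPM).

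The other calls between MPP4 and HSC held under fewer alternatives. In controls Ifih1 (-0.86 ± 0.29, adjusted p 0.0495), Iigp1, a GTPase of the immunity-related family (-0.95 ± 0.29, adjusted p 0.0315), and Samhd1, which hydrolyses deoxynucleotides (-0.57 ± 0.18, adjusted p 0.0361), were lower in MPP4. Samhd1 was lower by -0.57 ± 0.18 in mutants too (adjusted p 0.0329), and Ifih1 by -0.81 ± 0.29 (adjusted p 0.0570). Without the ID number of HSC control 2 the controls had 1 call, Ifitm1, and without that of HSC control 1 they had 2, Ifitm1 and Ifnar2. In mutants, Isg20, an RNA exonuclease (-1.54 ± 0.30, adjusted p 0.000280), and Gbp7 (-0.68 ± 0.18, adjusted p 0.00926) were lower in MPP4. Rtp4 (1.16 ± 0.28, adjusted p 0.00352), Sp100, a nuclear body protein (0.74 ± 0.18, adjusted p 0.00402), and Irf1 (0.71 ± 0.20, adjusted p 0.0116) were higher. Without the ID number of HSC mutant 2 the mutants had 5 calls, Ifi27l2a, Ifitm1, Ifnar2, Isg20 and Rtp4. The Gbp7 call was also lost without that of HSC mutant 3 (adjusted p 0.102) and the Rtp4 call without that of HSC mutant 1 (adjusted p 0.0866). Isg20 stayed called on leaving out each ID number in turn and was lost with batch as the block (adjusted p 0.266). Without the 6 libraries rich in erythroid, neutrophil or immunoglobulin transcripts, 4 genes were called in each genotype, Ifitm1, Ifitm3 and Ifnar2 in both, with Ifi27l2a in controls and Tlr3 in mutants. Only 1 ID number per genotype then still has both populations, so these calls rest on 1 pair of libraries each. Isg20 had the smallest p of the difference between the mutant effects in MPP4 and HSC (-1.65 ± 0.41, adjusted p 0.405).

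The pathway lists showed where the other interferon genes differed between these populations. In controls 8 of 101 were higher in MPP4 than in HSC and 7 lower, beside the shares of all genes given above. Irf8, a transcription factor of lymphoid and dendritic progenitors, was higher by 4.78 ± 0.36 (adjusted p 4.09e-08), Mb21d1, the DNA sensor cGAS, by 1.37 ± 0.23 (adjusted p 5.02e-05), and Irf5 by 1.52 ± 0.38 (adjusted p 0.00627). Tlr7, a sensor of single-stranded RNA, was higher by 4.23 ± 1.18 (adjusted p 0.0169). Uba7, which activates ISG15, was lower by -1.05 ± 0.21 (adjusted p 0.000506), and Cd274 by -1.68 ± 0.44 (adjusted p 0.00890). In mutants 11 of 101 were higher and 9 lower, with Irf8 at 5.56 ± 0.38 (adjusted p 4.93e-09) and Unc93b1, which delivers endosomal Toll-like receptors, at 1.62 ± 0.26 (adjusted p 2.62e-05). Of 9 markers of plasmacytoid dendritic cells with a row, all 6 tested were higher in MPP4, with 4 called in controls and 5 in mutants. Siglech, Spib and Cd209d were too low to test (30, 3 and 3 counts), and Siglech was highest in MPP1 mutant 1. Cox6a2 and Ly6d had counts in 8 and 9 libraries and may have passed the filter only through MPP4. The sum of the 9 was 204 to 575 CPM in HSC and 414 to 1244 CPM in MPP4. Tcf4 (6253 counts) and Runx2 (2516) made up most of it, so it does not show that such cells were present. Of 5 tested monocyte and macrophage markers 2 were called higher in controls and 1 in mutants. The part of such cells in these differences was not tested.

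Genes with and without the ISRE core printed above were compared as a description. In HSC mutants 10 of 15 tested genes with a core were lower, with a median of -0.17, and 18 of 21 without one, with a median of -0.31. In MPP4 mutants 9 of 16 with a core were lower, with a median of -0.10, and 15 of 23 without one, with a median of -0.12. In MPP1 mutants the counts were 6 of 15 and 7 of 20. Between MPP4 and HSC in controls, 0 of 16 genes with a core and 4 of 23 without one were called, beside 9.82% of all genes. In mutants the counts were 1 of 16 and 7 of 23, beside 12.7% of all genes. Of 11 genes with no promoter read, Iigp1 among them, 2 were called in each genotype. Nothing is read from these counts.

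Some counts of the group cannot be assigned with certainty to 1 gene. Igtp and Irgm2 overlap on the same strand of chromosome 11, Ifi203 overlaps Mndal on chromosome 1 and Irf9 overlaps Rnf31 on chromosome 14. Ifnar2 overlaps the predicted gene Gm21970 and Rtp4 overlaps Gm45338, each on the same strand. Among others, Adar, Irf7, Dhx58, Parp9 and Rtp4 overlap genes on the opposite strand, and the sources used here do not say whether the authors' counting used strand. The Ifit, Oas, Gbp, Ifitm and PYHIN families have near copies whose 3′ ends may share reads.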

How the data were processed

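CEL-Seq2 libraries were made from cells sorted straight into lysis buffer, per the labels' protocols. The authors deposited an estimated count for each gene and library, in whole numbers; all 1557 high values below the ceiling of 36909 fall on the grid that a correction for collisions among 4096 molecular tags gives, and no gene of the group reached the ceiling. The build was mm10, with R 3.4.0 and DESeq2, per the submitters' processing notes; for the aligner, counting program and annotation the sources used here name nothing. The DESeq2 tables, deposited by the authors, give a mean signal (counts divided by size factors), log2 fold changes with their standard errors, a test score, and p-values with adjusted p-values, per the file headers; the adjusted p-values were used here.

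Counts were analysed as deposited with edgeR 4.0.16 in R 4.3.3 (TMM scaling, genes kept by a minimum count of 10, robust quasi-likelihood test, Benjamini-Hochberg adjustment over all genes tested, threshold 0.05), after tests on simulated data. Genotypes were compared within each population with sequencing batch, named in the labels, as a covariate, and over counts summed per ID number. Populations were compared in 1 model of 18 libraries with ID number as a block. Replicate numbers come from the titles. In HSC the correlations of deviations for the same number were 0.458, 0.219 and 0.203. Only number 1, the batch A pair, was the best match both ways, and HSC control 2 and HSC mutant 3 matched each other best. The numbers were therefore not taken as pairs. Log2 values within batches used a prior count of 2. Alternatives were DESeq2 1.42.0, limma 3.58.1, other scaling, filters and covariates, a replicate block and left-out libraries; leaving out the 6 libraries rich in erythroid, neutrophil or immunoglobulin transcripts was chosen after seeing the data.

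Named are genes past the threshold, otherwise the 3 with the smallest p in each genotype comparison, 13 fixed read-outs (Ifih1, Ddx58, Mavs, Eif2ak2, Adar, Irf7, Stat2, Isg15, Ifit1, Ifit3, Oas2, Bst2 and Ifitm3), and up to 8 called genes for each population comparison, adding the 2 largest changes in each direction. From the other pathway lists up to 2 called genes per list and comparison are named; 1 further gene of the rule is not reported here. The members and lists were chosen with earlier results of these data known. Depth, from 354642 to 1943562 counts, limits low genes, and too low to test were 9 genes of the group in HSC, 10 in MPP1 and 3 in MPP4.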

Additional observations from a re-analysis of the deposited data

Results flagged for a closer look

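Levels of the genes were checked in 100 groups of 4 libraries for 1 library far from the other 3, and 10 groups had one, where chance gives about 1 in 20. The 10 include 4 with MPP4 mutant 2 as the far library, the one with 221915 CPM of erythroid, neutrophil and immunoglobulin transcripts; the part of those transcripts was not tested. In that library Rsad2 was at 617 CPM against 3.39 to 5.0 CPM in the other MPP4 mutants, Samhd1 at 311 CPM against 115 to 133 CPM, Irgm2 at 34.1 CPM against 15.0 to 18.1 CPM, and Ifnar2 at 72.4 CPM against 174 to 182 CPM. Rsad2 was also high in MPP4 control 4, at 138 CPM against 7.02 to 15.9 CPM in the other controls.

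The remaining 5 were spread over other libraries and genes. In MPP4 control 2 the adaptor Mavs was at 33.7 CPM against 17.5 to 18.7 CPM, and the GTPase Irgm2 at 37.0 CPM against 14.9 to 18.4 CPM. Irf7 was at 96.8 CPM in MPP4 control 1 against 40.7 to 44.8 CPM. Adar was at 42.5 CPM in MPP4 mutant 3 against 65.9 to 69.4 CPM, and Ifitm2 at 406 CPM in MPP4 mutant 1 against 130 to 132 CPM.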

How the results depend on the processing

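The count of 0 called genes in the mutants of HSC (14 alternatives), of MPP4 (17) and over ID numbers (15) held under each of them. In MPP1 it held except on leaving out MPP1 control 1, where Rsad2 passed the threshold and a larger share of all genes was called as well. No direction reversed among the called genes and the 3 with the smallest p of each comparison. Outside that set some did. In MPP4 mutants Isg15, Irf7, Irf9 and Bst2 were higher with all libraries and lower without the 6 named above. The number of genes lower in mutants ran from 22 to 38 in HSC, 9 to 26 in MPP1, 20 to 36 in MPP4 and 26 to 37 over ID numbers, partly because filters change how many were tested. The number of all genes called moved more, from 5 (0.0547% of the genes tested) with no batch term to 0.532% of 21061 with no filter in HSC (22 as reported; 13 to 83 on leaving out single libraries), 4 to 75 in MPP1 (18), 1 to 88 in MPP4 (8) and 5 to 118 over ID numbers (25). With a replicate block 0 genes of the group were called in HSC, 0 in MPP1 and 0 in MPP4, beside 40, 43 and 11 of all genes; the same-numbered libraries deviated together in MPP1 (0.107, 2 pairs) and not in MPP4 (0.309, -0.111, 0.332 and -0.114). No further block was fitted over ID numbers or between populations, where the ID number is already the unit or the block. Between MPP4 and HSC controls 6 genes were called, against 2 with DESeq2, 3 with batch as the block instead of ID number and 3 in batch C alone, and 1 to 8 on leaving out ID numbers. In mutants 10 were called, against 5 to 11 on leaving out ID numbers and 4 without the 6 libraries rich in erythroid, neutrophil or immunoglobulin transcripts. Without those 6, which leaves 1 ID number with both populations, 1 gene, Ly6e, was called between MPP1 and HSC controls, where leaving out ID numbers gave 0. Between MPP4 and MPP1 controls 3 were called, against 0 to 4 on leaving out ID numbers and 5 without the 6 libraries. Where a count moved, the cause was not tested. Leaving out 1 of 2 MPP1 libraries assumes that the lone one varies like the other group.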
